A study of Mus musculus with 98 samples.

Results

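Clusters of neighbouring STAT5 sites are stretches of the mouse genome where several places bound by the transcription factor STAT5 lie close together. A site was a peak of the STAT5 replicate 1 list that overlapped a peak of the STAT5 replicate 2 list by at least 1 base. Sites on a chromosome were joined whenever the gap to the next site was 12500 bases or less, and a cluster was a run of 3 or more. The rule gave 705 clusters that hold 2822 of the 11214 shared sites, or 25.2% of them. A further 2552 sites stood in 1276 pairs, and 5840 sites, 52.1% of the total, were lone, with no other shared site inside that distance. The clusters are thus 705 of 7821 groupings in all, counting each pair and each lone site as 1.

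The series holds 98 samples of mouse CD4+ T cells, of which 4 chromatin immunoprecipitation (ChIP-seq) peak lists are used here, 2 for STAT5 and 2 for p300. All 4 came from wild-type C57BL/6 cells of 1 condition, naive CD4+ T cells from pooled spleen and peripheral lymph nodes that were activated through CD3 and CD28 and kept 5 days in culture with IL-2. No unstimulated or STAT5-deficient cells were profiled in these lists, so they show where STAT5 was bound and not what IL-2 changed. The labels do not say whether the replicates are separate mice, and each list comes from 1 library. The labels name antibodies to STAT5A and STAT5B together, while the library names in the file headers say STAT5b. The cell type could not be checked against marker genes from peak positions.

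STAT5 is activated when IL-2 binds its receptor, whose JAK kinases phosphorylate it. It then pairs up, enters the nucleus and binds DNA at enhancers and promoters of genes for cytokine signalling, survival and metabolism in T cells. p300 is a histone acetyltransferase recruited by many transcription factors, and its presence is widely used as a mark of active enhancers. Dense groups of binding sites are a known feature of strong T cell enhancers, and joining sites across the distance used here is a common first step in defining them. The clusters were not ranked by signal, so no enhancer class is assigned to them. The coordinates are those of mouse build mm9. No gene annotation or sequence of that build was used here, so clusters are given by position, without gene names or motifs.

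The STAT5 lists held 26477 peaks from 16.2 M tags in replicate 1 and 19320 peaks from 6.45 M tags in replicate 2. Of the replicate 1 peaks 42.4% were found in replicate 2, and of the replicate 2 peaks 58.8% were found in replicate 1. The p300 lists held 10716 peaks from 18.6 M tags and 17762 peaks from 17.0 M tags. The replicate 2 lists alone carry peak heights, given by the authors as tags per 10 M tags sequenced, where M stands for mega. Shared sites reached from 20.2 to 2551.8 on that scale, which for the lowest sites rests on 13 tags.

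Most clusters were small and compact. Of the 705, 371 held 3 sites, 173 held 4, 79 held 5 and 82 held 6 or more, up to 1 cluster of 14. The span from the first to the last base had a median of 12456 bases, with quartiles of 7706 and 18202 and a range of 1483 to 62529. Together the clusters spanned 9.96 Mb. Neighbouring sites inside a cluster lay a median of 2801 bases apart, and 1408 of the 2117 gaps (66.5%) were of 5000 bases or less, well under the joining limit. The smallest gaps, 340 of them at 500 bases or less, separate peaks that the peak caller could have drawn as 1 region. STAT5 peaks covered a median of 16.2% of the span, and a typical cluster held 2.88 sites per 10000 bases. Span grew with the number of sites, from a median of 10112 bases in clusters of 3 to 27971 bases in clusters of 6 or more. The rule caps each gap at 12500 bases and each added site lengthens the span. These gaps and spans therefore describe the clusters and test nothing.

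**Figure D1:**
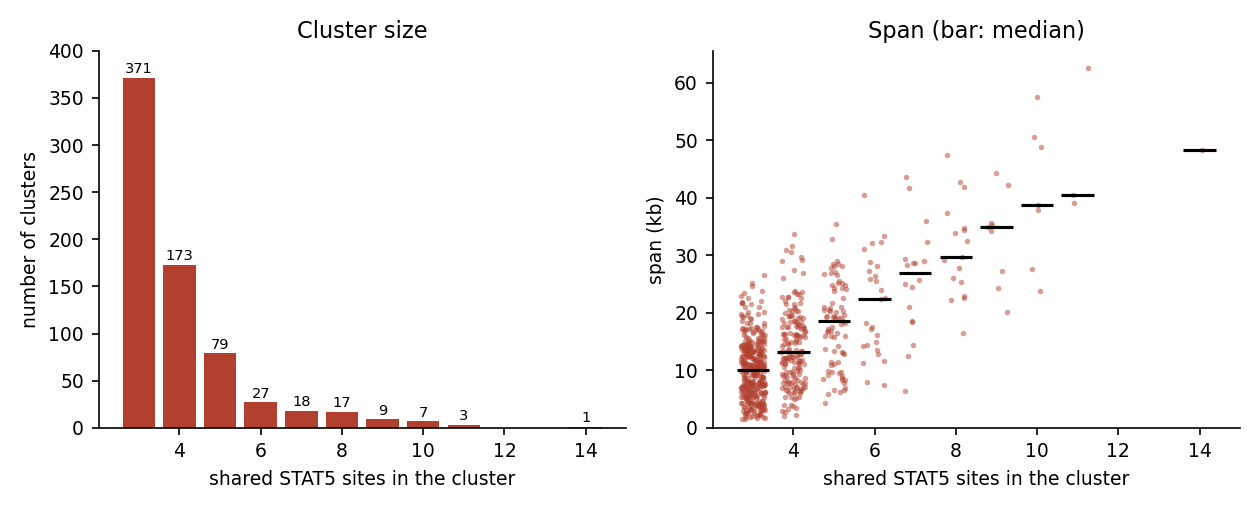
Left, number of clusters by the number of shared STAT5 sites they hold. Right, span in kb of each of the 705 clusters (points, spread sideways for clarity) with the median at each size (bars). Clusters of 3 sites are the commonest, at 371, and the widest cluster reaches 62529 bases.

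Clusters were found on all 20 chromosomes that held shared sites. The share of a chromosome's shared sites that stood in clusters ran from 16.8% to 31.9%, with a median of 25.1%. Some clusters were themselves close together, with the next cluster on the chromosome within 50000 bases in 78 of 685 cases and within 25000 bases in 34. Within the spans lay further STAT5 peaks that only 1 list held, at least 1 from replicate 1 in 390 clusters and at least 1 from replicate 2 in 224. The number of shared sites therefore often understates the replicate 1 peaks in a span. For replicate 2 it went both ways. In 73 clusters the sites took their heights from fewer distinct replicate 2 peaks than there were sites. In 25 of the 705 they took them from under 3 such peaks.

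The largest cluster lay at chr17:35330844-35379129 and held 14 sites in 48286 bases. Its heights in replicate 2, in order along the chromosome, were 43.4, 80.7, 31.0, 634.5, 634.5, 695.0, 58.9, 172.2, 423.5, 111.7, 125.7, 27.9, 80.7 and 119.4. Both sites of height 634.5 are separate in replicate 1 but fall under the same replicate 2 peak, so they share its height. Sites above 400 stood in places 4, 5, 6 and 9, with 58.9 and 172.2 between, and the last 5 were at 125.7 or below. Of the 14 sites 9 carried p300 in both p300 lists, including the 3 with the greatest heights, and 1 site, of height 27.9, carried it in neither.

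A cluster of 11 sites at chr2:11538393-11577556 had a different profile. Its heights were 76.0, 48.1, 147.4, 96.2, 103.9, 158.2, 285.4, 498.0, 729.1, 220.3 and 710.5, so the tall sites gathered at the far end. Every one of the 11 overlapped p300 in the replicate 1 list, and 8 did so in both lists. The 3 sites without p300 in the replicate 2 list had heights of 48.1, 96.2 and 103.9, and lay among the first 5.

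The widest cluster, at chr9:32295050-32357578, spread 11 sites over 62529 bases. Heights there were 164.4, 34.1, 40.3, 40.3, 124.1, 37.2, 299.4, 37.2, 223.4, 76.0 and 183.0, an alternation of moderate and low sites with no single dominant peak. Its 6 sites with p300 in both lists included low ones of 37.2 and 40.3, while the last site, at 183.0, carried p300 in neither. The cluster of 11 at chr9:43817401-43857945 was similar in kind, with heights from 24.8 to 401.8 and p300 in both lists at 6 sites. The cluster of 10 at chr6:124662095-124719645 carried p300 in both lists at 4, with its tallest site, of 606.5, in sixth place.

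The 5 clusters with the tallest site were picked by that height, so a peak far above its neighbours is partly given by the choice. Their tallest peak was 5.26 to 32.7 times the cluster's median peak. In the 5 clusters with the most sites it was 3.94 to 6.36 times, so the ranges overlapped. At chr16:23984335-23991861 a replicate 2 peak of height 2551.8, the highest of all shared sites, covered 2 of 6 sites of a cluster of 7527 bases. The other 4 sites there had heights of 31.0, 32.6, 88.4 and 117.9, so this 1 peak held 90.4% of the cluster's height summed over distinct replicate 2 peaks. At chr11:117813525-117831856 the last of 4 sites, at 1622.6, held 92.8% of the summed height, and the others had 37.2, 62.1 and 26.4. At chr12:81210020-81217015 a replicate 2 peak of 1461.3 covered the last 2 of 5 sites and held 71.6% of the summed height.

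The cluster with the greatest summed height lay at chr9:107180932-107216474, with 9 sites in 35543 bases and a sum of 6256.2. Its first 4 sites were low, at 40.3, 49.6, 46.5 and 60.5, and its last 5 were tall, at 2193.5, 330.4, 769.4, 1535.8 and 1230.2. All 5 tall sites carried p300 in both lists, against 1 of the 4 low ones. A second cluster began 17249 bases further on, past the joining limit, at chr9:107233724-107240923, whose middle site reached 1452.0 between sites of 24.8 and 63.6.

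**Figure D2:**
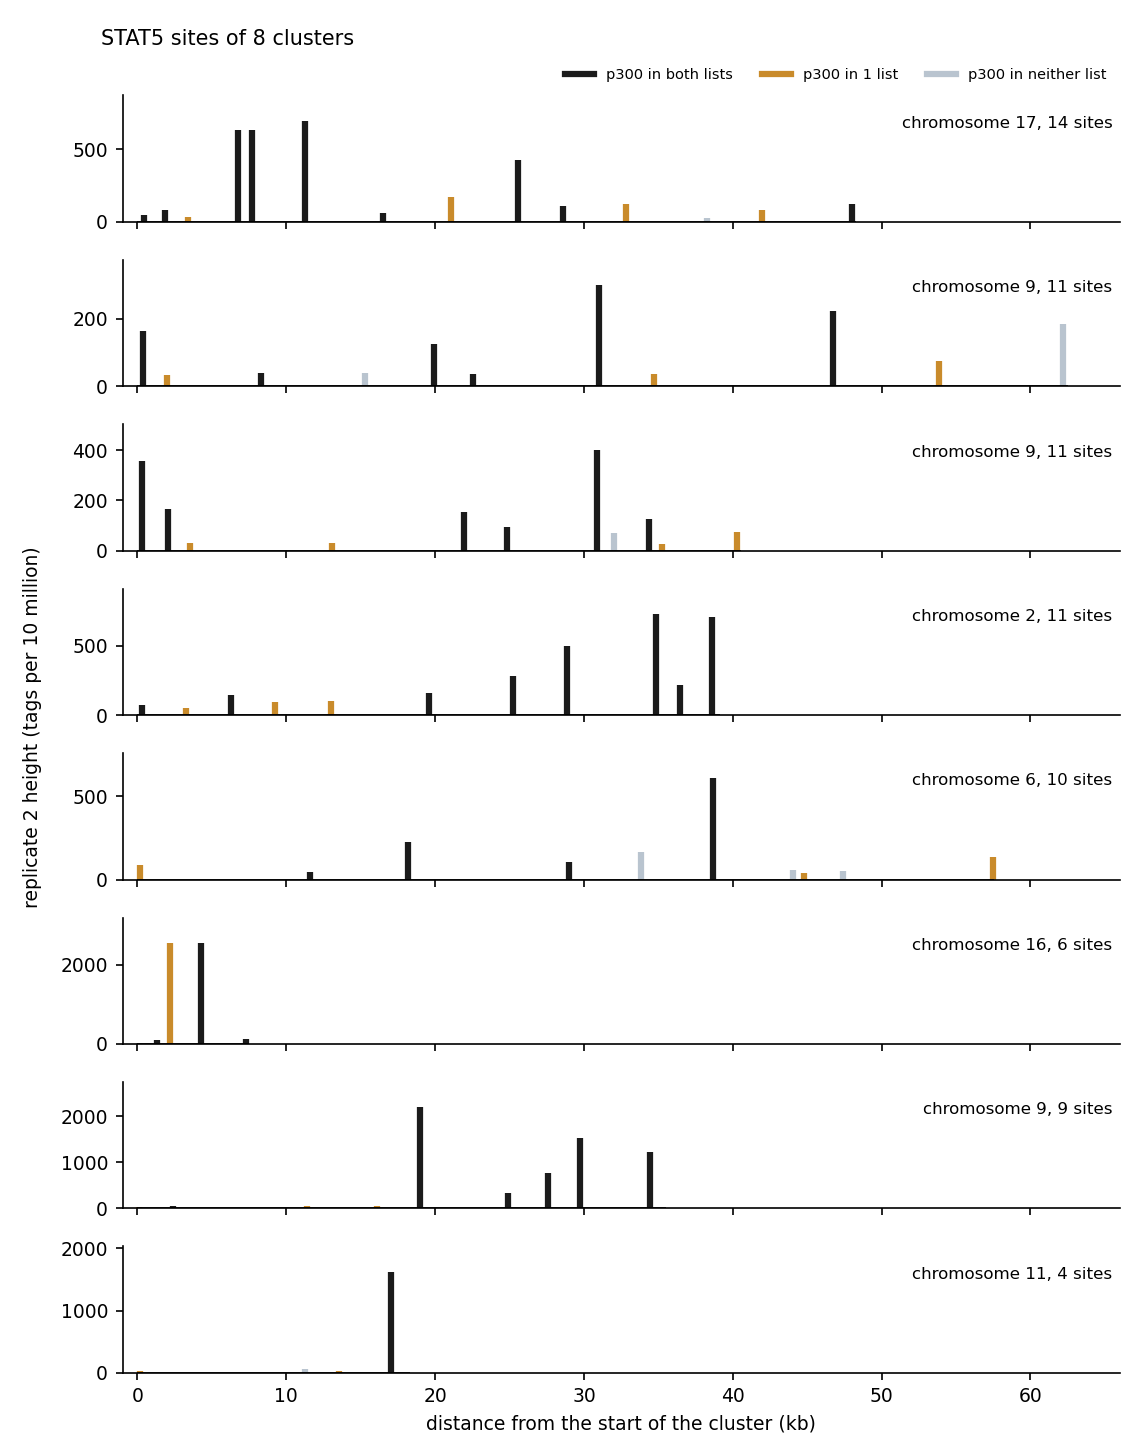
Replicate 2 height in tags per 10 M (vertical lines, own scale in each panel) of the sites in 8 clusters, the 5 with the most sites and the 3 with the tallest site, against distance in kb from the start of the cluster; colour gives p300 in both lists, in 1 or in neither. In the top 5 panels sites spread over 39164 to 62529 bases, and the tallest in each reaches 299.4 to 729.1. The bottom 3 are led by peaks of 1622.6 to 2551.8.

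Over all 705 clusters the tallest replicate 2 peak was a median of 2.21 times the cluster's median peak and held a median of 50.7% of the summed height. In 366 clusters (51.9%) it held over 50% of the sum. In a small cluster the tallest peak holds a large share by arithmetic, whatever the heights. Over clusters of all sizes together, the tallest site was an end site in 338 and an inner one in 316. In the other 51 the tallest replicate 2 peak covered more than 1 site. Among 351 clusters of 3 with a single tallest site, it was the middle one in 112, or 31.9%. Heights of neighbours inside a cluster were nearly unrelated, with Spearman's rho of 0.10 over 2036 neighbouring sites under different replicate 2 peaks, beside 0.03 over 5820 successive lone sites (correlations across sites of 1 library, which share its depth).

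p300 was found more often at sites in clusters than at lone sites, in each p300 list. In the replicate 1 list, 61.3% of clustered sites overlapped a p300 peak (95% Wilson interval 59.5 to 63.0), against 40.8% of lone sites (39.6 to 42.1). In the replicate 2 list the shares were 68.7% of clustered sites (67.0 to 70.4) and 47.7% of lone sites (46.4 to 48.9). Over all 11214 shared sites the same shares were 47.8% in the replicate 1 list and 55% in the replicate 2 list. With p300 required in both lists, 1314 of 2822 clustered sites (46.6%, 44.7 to 48.4) and 1529 of 5840 lone sites (26.2%, 25.1 to 27.3) qualified, a difference of 20.4 percentage points (18.2 to 22.5), against 33.2% of all shared sites. Sites in pairs lay between, at 34.5% (32.7 to 36.4). With p300 in either list sufficient, the shares were 83.4% of clustered and 62.3% of lone sites, against 69.6% of all shared sites. The intervals cover counting error only and treat sites as independent. Sites of 1 library are not replicates of a condition, so no p-value is given, and the 2 p300 lists are the only repeat.

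**Figure D3:**
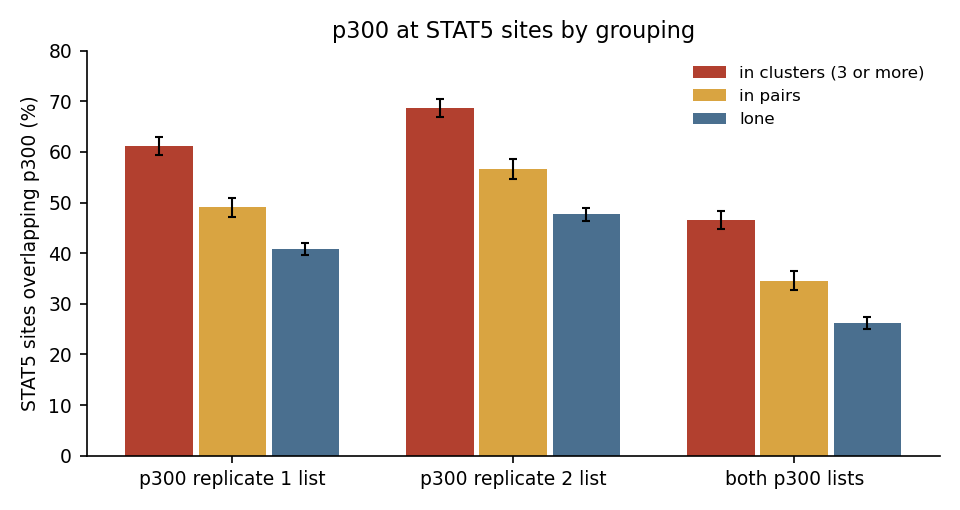
Percentage of STAT5 sites overlapping a p300 peak (bars, with 95% Wilson intervals) for 2822 sites in clusters, 2552 in pairs and 5840 lone sites, in each p300 list and in both. In every group of bars the clustered sites are highest, at 61.3%, 68.7% and 46.6%, and the lone sites lowest, at 40.8%, 47.7% and 26.2%.

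The same order held on each of the 20 chromosomes, where the share with p300 in both lists was higher in clustered than in lone sites by 14.0 to 27.2 percentage points. When each cluster was given equal weight, its sites carried p300 in both lists at a mean share of 45.5%. Peak width moved with this result. Clustered sites had a median width of 435 bases, against 331 bases for lone sites, and a wider peak has more room to overlap another. With the p300 peak required to cover at least 50% of the STAT5 peak, the shares were 24.6% in clustered and 14.3% in lone sites. Among peaks of the narrowest width in the list, 158 bases, they were 13.5% of 200 clustered and 7.49% of 614 lone sites. With p300 required at the centre base of the STAT5 peak, they were 34.0% in clustered and 18.8% in lone sites. That setting takes the STAT5 width out of the overlap, but not the width of the p300 peak. The differences in these 3 settings were 10.3, 6.01 and 15.2 percentage points, and the clustered share was 1.72, 1.80 and 1.81 times the lone share, beside 1.78 times over all sites. Among the narrowest peaks the counts were small, and the interval of the difference ran from 1.32 to 11.7 points.

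p300 peaks themselves were taller and wider at clustered sites. Their median width in the replicate 2 list was 379 bases at clustered and 304 bases at lone sites. Height is summed over the region, and p300 height per kb was not compared. Where a replicate 2 p300 peak was present, its median height was 58.4 tags per 10 M at 1939 clustered sites (quartiles 30.7 and 113.2), against 38.9 at 2783 lone sites (23.0 and 64.9). Of clustered sites with p300 in the replicate 1 list 76.0% also had it in the replicate 2 list, against 64.2% of such lone sites. Over all clustered and all lone sites, whatever the replicate 1 list held, the replicate 2 shares were 68.7% and 47.7%. The higher match in clusters thus started from a higher share, and does not show that the p300 replicates agreed better there. Seen from the other side, 35.3% of the 3724 shared STAT5 sites with p300 in both lists stood in clusters, against 20.1% of the other 7490.

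STAT5 height was greater in clusters too, by less. The median height in replicate 2 was 82.2 tags per 10 M over clustered sites (quartiles 43.4 and 181.5) and 58.9 over lone sites (35.7 and 102.4), a ratio of 1.40, with 68.3 for paired sites. The distributions overlapped broadly, since the lower quartile of clustered sites lay below the median of lone sites. The upper ends differed more, with 69 clustered, 20 paired and 11 lone sites among the 100 highest. Because 157 clustered sites share a replicate 2 peak with a neighbour and no lone site does, clusters were also redrawn from the shared peaks' replicate 2 intervals, each counted once, which gave medians of 74.5 for clustered and 58.9 for lone peaks. Height is summed over the region, and per kb of region the medians were 233 and 198. Only 1 list carries heights, so no replicate error of the ratio exists. The rule used replicate 2 only through the presence of a peak.

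Fold over input, as the authors' replicate 2 list gives it, differed less than height. Its median was 8.52 in clustered and 7.04 in lone sites, but the upper quartile was 15.6 in clustered and 17.0 in lone sites, in the opposite order. Low enrichment was less common in clusters, with a fold under 4 at 11.1% of clustered and 23.7% of lone sites.

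The 3 tallest lone sites show what a strong site outside a cluster looks like. They lay at chr2:38327170-38328764 (height 1076.6), chr2:38390971-38392879 (881.1) and chr16:24392426-24394466 (876.5), and all carried p300 in both lists. The first and second were each other's nearest shared site, 62206 bases apart. Their heights exceeded the tallest site of most clusters, whose median was 232.7.

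p300 remained more frequent in clusters among sites of like height. Shared sites were divided by replicate 2 height into 4 classes of about equal size. In the lowest class, of heights 20.2 to 37.2, 23.2% of 578 clustered sites (19.9 to 26.8) and 15.2% of 1638 lone sites (13.5 to 17.0) carried p300 in both lists. At heights of 38.8 to 65.2 it was 37.1% of clustered and 20.6% of lone sites. At 66.7 to 124.1 it was 44.9% of clustered and 28.6% of lone sites. In the highest class, from 125.7 up, 66.9% of 991 clustered sites (63.9 to 69.8) and 47.5% of 1113 lone sites (44.6 to 50.5) carried it. Height and clustering thus each went with p300, and lone sites of the highest class, at 47.5%, stood near clustered sites of the class below it, at 44.9%. Of the clustered sites 35.1% fell in the highest class, against 19.1% of lone sites. Within the highest class clustered sites were still taller, with medians of 247 and 194 tags per 10 M, and wider, at 640 and 530 bases.

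**Figure D4:**
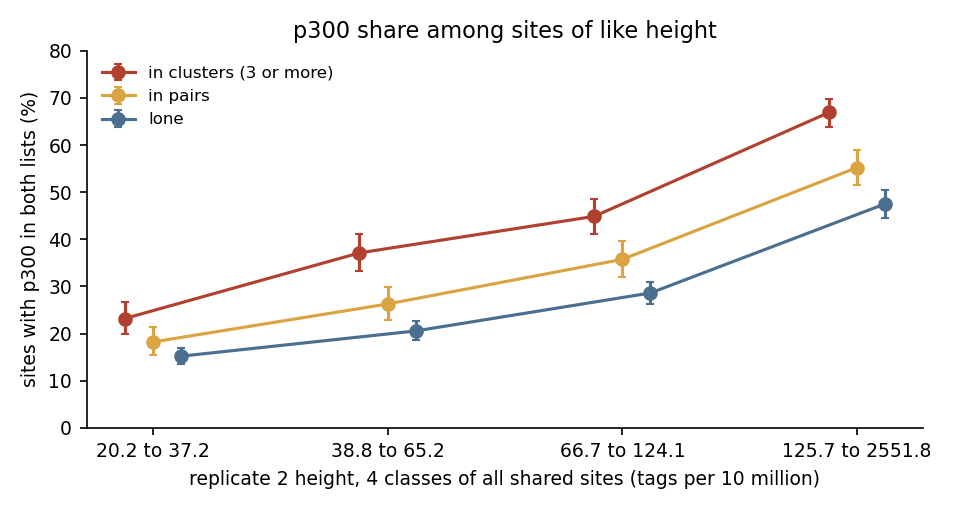
Percentage of STAT5 sites with p300 in both lists (points, with 95% Wilson intervals) within 4 classes of replicate 2 height in tags per 10 M, for sites in clusters, in pairs and lone. Shares climb with height in each grouping, and in each class clustered sites stand above lone ones, at 66.9% and 47.5% in the highest.

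The join at 12500 bases marks no visible step. Shares were set out by distance to the nearest shared STAT5 site, for all sites, whatever their grouping. p300 in both lists stood at 43.3% for sites within 1000 bases of a neighbour, 36.3% at 5000 to 12500 bases, 31.9% at 12500 to 25000 bases and 20.9% beyond 100000 bases. Median height over the same classes was 86.9, 66.7, 60.5 and 54.3. The gap nearest the limit on the inside was 12496 bases and on the outside 12510 bases. Sites whose neighbour lay 10000 to 12500 bases away carried p300 in both lists in 32.2% of 407 cases, and those at 12500 to 15000 bases in 31.5% of 355. Clustered and paired sites both have a neighbour inside the limit, at a median distance of 1753 and 2921 bases. p300 in both lists stood at 46.6% of clustered and 34.5% of paired sites, so this scale does not tell clusters from pairs.

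**Figure D5:**
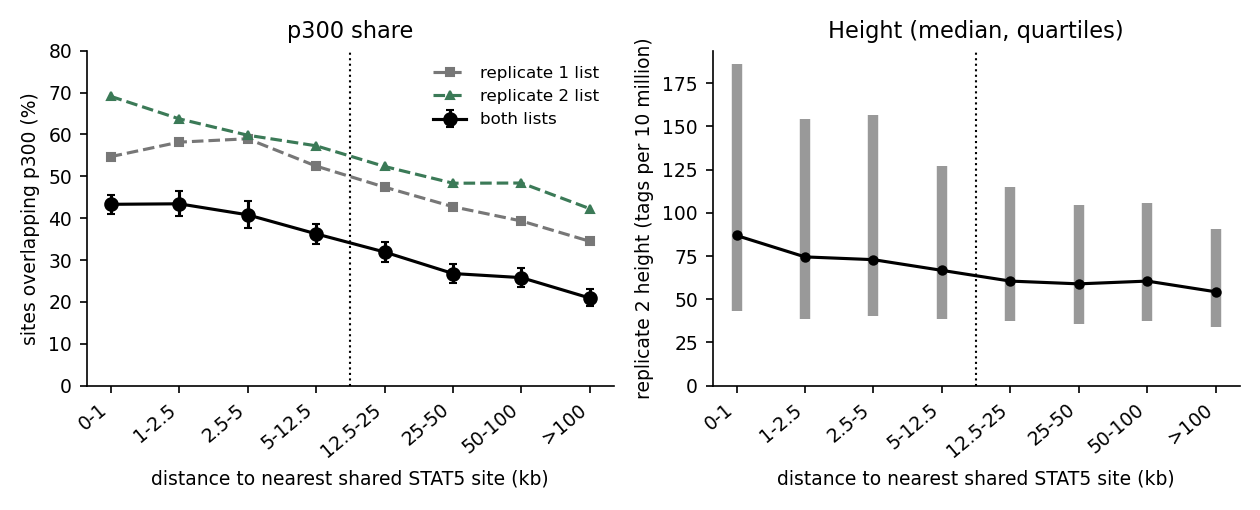
Left, percentage of all shared STAT5 sites overlapping p300 in each list and in both (95% Wilson intervals on the last), by distance in kb to the nearest shared site; right, median replicate 2 height with quartiles over the same classes. The dotted line marks the joining limit, across which the share with p300 in both lists passes from 36.3% to 31.9% without a step.

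Inside clusters p300 followed the taller sites. The tallest site of a cluster carried p300 in both lists in 463 of 705 cases (65.7%, 62.1 to 69.1), the second tallest in 46.0%, the next in 39.1% and the lower ones in 35.5%. Their median heights were 233, 102, 55.8 and 45.0. The lower ones came only from clusters of 4 or more sites. Those clusters carried p300 in both lists at 48.6% of their sites, against 43.5% in clusters of 3. Even those lowest-ranked sites lay above the 26.2% of lone sites, which had a median height of 58.9. Inner sites carried p300 in 50.3% of cases and end sites in 42.8%, with median heights of 88.4 and 76.0. Clusters of 3 give 2 end sites but 1 inner site, so inner sites draw more on larger clusters. A site whose predecessor carried p300 did so in 52.1% of cases, and one whose predecessor did not, in 45.2%.

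Most clusters were mixed. In 545 of 705 (77.3%) some sites but not all carried p300 in both lists, in 55 (7.80%) all did, and in 105 (14.9%) none did. The share was 46.6% over clustered sites and 33.2% over all shared sites. At such shares mixed clusters would be common even if p300 fell on sites without regard to cluster. Whether the mix departs from that was not tested. Of the 371 clusters of 3, 76 had p300 in both lists at no site, 151 at 1, 99 at 2 and 45 at all 3. Larger clusters carried it at a slightly higher share of sites, 52.3% (48.3 to 56.2) in those of 6 or more against 43.5% (40.6 to 46.4) in those of 3. Only 1 of the 82 clusters of 6 or more lacked it altogether, though a larger cluster has more sites at which it can occur.

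The clusters richest in p300 illustrate the upper end. At chr11:87550829-87570953, 8 of 9 sites carried p300 in both lists, and the last 4 sites lay under 1 replicate 2 p300 peak of height 406.3. At chr1:140059456-140087773 all 7 sites carried it, at STAT5 heights from 29.5 to 318.0. At chr14:54819322-54853507, 8 of 9 did, but there 1 replicate 2 p300 region of 32420 bases, the widest in that list, covered 6 of the sites, so site-by-site calls in that list say little at this locus. Across clusters such regions were rare, with 13 clustered sites and no lone site under a p300 peak of over 5000 bases.

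Clusters without p300 in either list at any site numbered 7 of 705 (0.993%). All 7 held 3 sites, and the 3 widest are given in full. At chr10:96098201-96120220 heights were 52.7, 34.1 and 71.4. At chr8:87364289-87381021 they were 49.6, 31.0 and 34.1, and at chr16:31024408-31040295 they were 66.7, 24.8 and 29.5. All of these sites lay below the median of clustered sites, 82.2. Over all 371 clusters of 3 the tallest site had a median height of 181.5, and in each of these 7 clusters it was lower. In the cluster at chr6:52630343-52642174, named after its values were seen, the tallest site reached 142.7, while in the other 6 clusters without p300 the tallest lay between 46.5 and 71.4.

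p300 formed clusters of its own by the same rule. Of 4498 p300 sites shared by the 2 lists, 22.9% stood in 254 clusters of 3 or more, beside 25.2% for STAT5. The p300 sites were sparser, with a median gap of 77297.5 bases against 40871 for STAT5, so these shares are not like for like. Of these p300 clusters 207 (81.5%) overlapped a STAT5 cluster, while 207 of the 705 STAT5 clusters (29.4%) overlapped a p300 cluster. Shared p300 peaks away from any STAT5 site of the cluster were uncommon, with at least 1 in 64 clusters (9.08%).

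Clusters were also drawn within each STAT5 list by itself, and the other list, which then played no part in the drawing, was consulted. Of the 12880 peaks clustered in the replicate 1 list 42.2% (41.3 to 43.0) were found in replicate 2, against 42.6% (41.5 to 43.6) of the 8287 lone ones. Of the 6903 peaks clustered in the replicate 2 list 62.3% (61.1 to 63.4) were found in replicate 1, against 56.1% (55.0 to 57.2) of the 7961 lone ones. Having close neighbours in 1 list went with recovery in the other in 1 direction only. Among peaks of the narrowest width the shares were 15.7% of clustered and 20.4% of lone peaks for the replicate 1 list, and 43.4% of clustered and 38.4% of lone peaks for the replicate 2 list. The single lists were more clustered than the shared sites, at 48.6% of the replicate 1 list in 2640 clusters and 35.7% of the replicate 2 list in 1593, so the number of clusters depends on which list is used. With the replicate 1 list alone, p300 in both lists stood at 20.1% of clustered and 10.6% of lone peaks, a difference of 9.53 percentage points and a ratio of 1.90. With the replicate 2 list alone it stood at 28.1% of clustered and 13.7% of lone peaks, a difference of 14.4 points and a ratio of 2.05.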

How the data were processed

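Peak lists were made by the authors with HOMER findPeaks in factor style, with neighbouring peaks stitched into regions of variable length, per the file headers. The submitters' processing notes name MACS2 and bedtools instead, and the headers were followed. The notes give build mm9, and peaks reach past the last GRCm38 gene on 9 chromosomes, so GRCm38 tables were not used. Each list comes from 1 library called against input with at least 2-fold excess, per the file headers. The Poisson p cutoffs in those headers were 1e-14 for both replicate 1 lists, 1e-17 for the STAT5 and 1e-18 for the p300 replicate 2 list. Thresholds thus differ between replicates. The header names of the replicate 2 inputs give the same IL-2 culture as the ChIP libraries, while those of the replicate 1 inputs give another IL-2 time, so the input filter of the replicate 1 lists may rest on a different culture. The score column of the deposited replicate 1 lists is a constant and was not used. In the replicate 2 lists the deposited height is a signal in tags per 10 M, the deposited tag counts are raw, and the deposited fold is a ratio over input, per the file headers. The replicate 1 lists follow BED counting from 0 and were shifted by 1 base.

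Overlaps, clusters and Wilson 95% intervals were computed with Python 3.11.15, pandas 2.3.3 and scipy 1.17.1, after a check on simulated peaks. A site took the height of its highest overlapping replicate 2 peak. p300 in both lists means overlap with a peak of each list, which need not be the same bases. Named clusters are the 5 with the most sites, the 5 with the tallest site, the 5 with most p300 sites and 3 of those without p300, and the 3 tallest lone sites were named too. Ties in site number (7 clusters of 10 sites for the last place) went to the wider cluster, and ties in p300 sites (4 clusters with 7) to the higher share. The 7 clusters without p300 tied in site number, and the widest were taken, a choice the rule did not state. The members, measures and this rule were chosen with earlier results of these data known. Alternatives varied the gap, the cluster size, the overlap and the lists, and 4 were added after the values were seen. RNA counts were not used, since no mm9 annotation was at hand to link sites to genes, and the planned test of genes at clusters was not run.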

Additional observations from a re-analysis of the deposited data

How the results depend on the processing

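p300 was more frequent, and STAT5 height greater, in clustered than in lone sites under every alternative that was run, while sizes moved. The number of clusters (705) was 394 with a largest gap of 5000 bases, 334 with 4 or more sites, 1981 with 2 or more, 443 when the overlap had to cover 50% of the replicate 1 peak and 292 among sites at or above median height. In that order the share of sites in clusters was 12.8%, 15.2%, 47.9%, 19.2% and 18.9%, and it was 38.8% with a gap of 25000 bases, 26.2% with replicate 2 intervals and 21.0% with peaks within 500 bases merged. In those last settings the number of clusters was 994, 732 and 576. The median span was 6256, 24105.5, 16975.5, 6456, 11279.5 and 13816.5 bases with gaps of 5000 and 25000, 4 or more sites, 2 or more, the taller sites and merged peaks. The p300 difference (20.4 points) was 18.2 with the wider gap, 14.7 with 2 or more sites, 17.5 in the taller sites, 10.3 with p300 over 50% of the peak, 26.9 when lone meant no STAT5 peak of either list nearby (2800 of 5840 sites), 15.2 at the centre base and 6.01 in the narrowest peaks. The height ratio (1.40) was 1.26 with 2 or more sites or replicate 2 intervals, 1.52 with the 50% overlap, 1.21 for fold over input and 1.17 per kb. With 1 STAT5 list left out, clusters numbered 1593 to 2640, shares were 35.7% to 48.6% and spans 12173 to 12749 bases. The p300 differences were then 9.53 and 14.4 points, and the height ratio without STAT5 replicate 1 was 1.31. With 1 p300 list left out the clusters stayed as they were, and the p300 differences were 20.5 and 21.1 points. The causes of these moves were not tested beyond the settings themselves. The test of genes at clusters was not run for want of an mm9 annotation. No paired analysis was possible because each result compares sites within the same lists. Depth limits the low end, since the lowest sites rest on 13 tags in a library of 6.45 M tags.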
